A study of Mus musculus with 4 samples.

Results

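The expression of 10 genes by which a macrophage binds and takes up an apoptotic cell was followed in efferocytic and non-efferocytic bone marrow (BM) macrophages. They were picked by symbol, as 10 of the 31053 genes in the count matrices, and all 10 were found and passed the filter on low counts. The set holds the bridging protein Mfge8, the integrin subunits Itgav, Itgb3 and Itgb5, the scavenger receptors Stab1 and Lrp1, the pair Elmo1 and Dock1, and the GTPases Rac1 and Rac2. Single-cell RNA sequencing was performed on 4 libraries, 1 of each group in each of 2 experiments. The study asked how engulfing apoptotic prostate cancer cells changes the macrophage.

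The macrophages were grown with M-CSF from the marrow of male C57BL/6J mice aged 4 to 6 weeks by the methods, and 4 weeks by the legend for these libraries. Apoptotic RM1 cells, a mouse prostate cancer line transformed with Ras and Myc, were killed by UV light, stained with the green dye CFSE and given to the macrophages for 16 to 18 h. Cells positive for the macrophage antigen F4/80 and for CFSE were sorted as efferocytic, and cells positive for F4/80 only as non-efferocytic. CFSE marks a cell that holds or carries dyed material, and the sort does not tell uptake from attachment. The labels read as if both groups came from the co-culture, while the study's discussion describes the non-efferocytic cells as macrophages alone, so whether the groups differ in uptake or in exposure to RM1 cells cannot be told apart here. The level of the 10 genes in RM1 cells was not measured, and RNA carried in with engulfed RM1 cells was not tested for its part in any difference. The methods state at least 3 independent mice per group for BM macrophage experiments but not the mice of each library. The p-values therefore measure the spread left between these 4 libraries once the difference between experiments is fitted, not that between mice. That spread is estimated in part from other genes.

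The 8 macrophage markers (Lyz2 the most abundant) were all detected in every library. Of the cells 89.4% to 95.7% were macrophage-marker barcodes, with at least 4 of these markers and at most 2 neutrophil markers at 2 or more UMIs. Total depth was 117155896 to 178218821 UMIs per library (a UMI is 1 counted RNA molecule), with 6695 to 13411 cells. The study reports fewer cells in each library under the same stated cutoffs. The gap is widest in the non-efferocytic library of Experiment 2, where the calling rule of Cell Ranger, the counting software, kept 10615 of the 13411. Efferocytic cells were deeper, with a median of 17171 and 17475.5 UMIs against 11146 and 9600 in non-efferocytic cells. One library differed from the rest, the non-efferocytic one of Experiment 2, with 36048 barcodes of 500 to 1000 UMIs where the others had 1048 to 2046, and with 118 cell barcodes shared with the efferocytic library of its experiment where other pairs shared 14 to 23. Without the shared barcodes the calls of the 10 genes were the same, 4 higher and 1 lower.

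As background, a dying cell exposes phosphatidylserine on its surface. MFG-E8, the product of Mfge8, binds this lipid and bridges it to integrins of the phagocyte that pair the alpha v chain (Itgav) with the beta chain of Itgb3 or Itgb5. Stabilin-1 (Stab1) is a scavenger receptor that can bind phosphatidylserine itself, and LRP1 (Lrp1) is an endocytic receptor that binds calreticulin on the dying cell. Inside the cell, ELMO and DOCK proteins together form an exchange factor that loads Rac with GTP, and Rac then drives actin polymerization around the target.

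In edgeR's fit scaled by TMM, Mfge8, Itgav, Lrp1 and Elmo1 rose in efferocytic macrophages and Stab1 fell. Itgb3, Itgb5, Dock1, Rac1 and Rac2 did not pass the test. With library totals in place of TMM, Itgb5 also passed as lower (-0.33, adjusted p = 0.00977). Counted as UMIs per cell instead, 8 of the 10 genes rose and none fell (edgeR), where 49.9% of all genes tested rose and 4.23% fell. At an unadjusted p under 0.05 were 8 of the 10, and 8467 of the 13869 genes tested. Counted so, the median of all genes itself moved by 0.60 on the log2 scale. Throughout, levels are in CPM (UMIs of a gene per 1000000 UMIs of the cells of a library). Differences are edgeR's log2 fold change scaled by TMM. By the same test 19.9% of the 13869 genes tested were higher and 19% were lower, 38.9% in all. Among the 10 genes 4 were higher and 1 was lower, and their median log2 fold change was 0.19 where that of all genes was -0.018. With 10% of the UMIs of each library taken off as free RNA, 192 genes (1.46% of those tested) were higher and 125 (0.953%) lower in all, and among the 10 genes Itgav alone passed. Mfge8 then had 0.68 (adjusted p = 0.0791), Lrp1 0.47 (adjusted p = 0.0654), Elmo1 0.46 (adjusted p = 0.164) and Stab1 -0.86 (adjusted p = 0.0503).

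**Figure D1:**
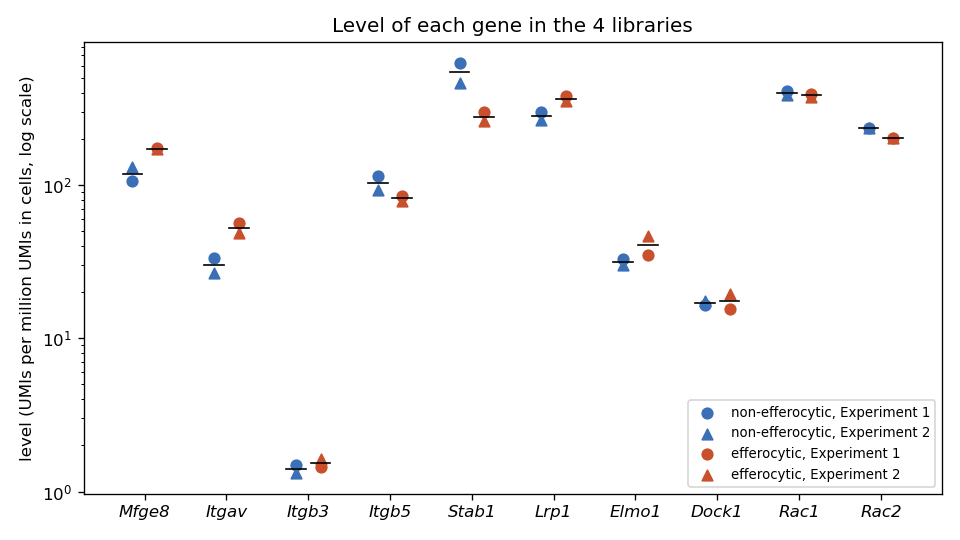
Level of each gene in CPM (log axis) in the 4 libraries. Blue marks are non-efferocytic and orange marks efferocytic, circles Experiment 1 and triangles Experiment 2, and the short line is the mean of 2 libraries. The marks of both groups stand clear of each other for Itgav and Stab1 and lie almost on each other for Rac1, and Itgb3 lies far under all others at 1.32 to 1.63 CPM.

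The levels spanned a wide range. A 3' library counts molecules at the RNA's end, so CPM were compared between genes without division by length. In non-efferocytic cells the order was Stab1 (544 ± 115 CPM, SD, n = 2), Rac1 (399 ± 15.4), Lrp1 (282 ± 22.1), Rac2 (235 ± 0.071), Mfge8 (118 ± 17.5), Itgb5 (103 ± 15.0), Elmo1 (31.5 ± 2.22), Itgav (30.2 ± 4.90), Dock1 (16.9 ± 0.721) and Itgb3 (1.41 ± 0.127). The libraries of Mfge8 and Itgb5 overlapped in this order, as did those of Elmo1 and Itgav. In efferocytic cells Rac1 (386 ± 11.9 CPM) and Lrp1 (366 ± 21.0) came first and overlapped, ahead of Stab1 (279 ± 26.8), which had been first in the other group. Itgav (52.5 ± 5.99) came before Elmo1 (40.8 ± 8.06) there, without overlap. Over all tested genes, the level of Stab1, Rac1, Lrp1 and Rac2 lay above that of 95.6% to 97.7% of genes, and that of Itgb3 above 25.4%.

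The position of each gene is given in the GRCm38 build (mm10, the build of the files) with the GENCODE vM21 annotation. Mfge8 (ENSMUSG00000030605) lies on the minus strand at chr7:79133768-79149060, Itgav on the plus strand at chr2:83724397-83806916, and Stab1 on the minus strand at chr14:31139013-31168641. The promoters of these genes are shown because Itgav and Mfge8 were the members that rose most and Stab1 the member that fell. Each is the 250 bases before the RefSeq transcription start (GRCm38.p6), 5' to 3' on the gene's strand. Capitals mark the core that HIF factors bind, searched as ACGTG or GCGTG on either strand (CACGT or CACGC on the other), since the study is concerned with HIF-1α.
Mfge8, chr7:79149061-79149310, minus strand: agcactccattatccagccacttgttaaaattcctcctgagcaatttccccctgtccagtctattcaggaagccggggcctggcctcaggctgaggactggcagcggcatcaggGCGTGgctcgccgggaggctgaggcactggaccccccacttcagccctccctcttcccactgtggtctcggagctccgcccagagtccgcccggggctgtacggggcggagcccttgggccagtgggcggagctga
Itgav, chr2:83724147-83724396, plus strand: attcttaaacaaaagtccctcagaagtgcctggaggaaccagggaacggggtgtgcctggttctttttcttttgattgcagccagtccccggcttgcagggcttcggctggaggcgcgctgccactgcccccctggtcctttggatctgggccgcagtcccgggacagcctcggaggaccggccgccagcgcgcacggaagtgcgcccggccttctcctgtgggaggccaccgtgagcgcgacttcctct
Stab1, chr14:31168642-31168891, minus strand: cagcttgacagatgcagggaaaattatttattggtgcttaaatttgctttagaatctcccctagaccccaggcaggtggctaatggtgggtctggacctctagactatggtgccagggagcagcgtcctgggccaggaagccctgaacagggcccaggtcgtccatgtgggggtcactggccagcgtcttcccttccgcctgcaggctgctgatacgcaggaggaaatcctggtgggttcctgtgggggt
The Mfge8 promoter holds 1 core, GCGTG, at -136 from the start, and those of Itgav and Stab1 hold none of these letters. RefSeq's table gave 8 promoters for 7 of the 10 genes. A core was found in 4 of the 8, where 38.6% of all 32851 promoters held one. The other matches were GCGTG at -86 in Itgb5, GCGTG at -85 in 1 of the 2 Elmo1 promoters and CACGC at -135 in Dock1. A match is a description of the sequence and not a bound site.

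Mfge8, the bridge between the dying cell and the integrins, was at 106 and 130 CPM in the non-efferocytic libraries of Experiments 1 and 2 and at 175 and 171 CPM in the efferocytic ones. Both efferocytic libraries lay above both non-efferocytic ones. The log2 fold change was 0.66 with a standard error of 0.113 and an adjusted p of 0.00316 (edgeR, Benjamini-Hochberg). Without 1 library at a time, and also without the block, it lay between 0.52 and 0.82. It then passed only without the efferocytic library of Experiment 1. Without the block alone its adjusted p was 0.0334 (edgeR).

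In both experiments the Mfge8 difference was smallest in the deepest cells. In Experiment 2 Mfge8 was at 97.0 against 140 CPM (non-efferocytic against efferocytic) in cells of 1000 to 5000 UMIs and 85.1 against 137 CPM at 5000 to 10000. It was at 118 against 127 CPM at 10000 to 20000 and 206 against 205 CPM from 20000 up. In Experiment 1 the efferocytic cells were higher in every band, at 241, 152, 161 and 183 CPM against 101, 82.1, 89.4 and 155 CPM. In the band of 10000 to 20000 UMIs alone the log2 fold change was 0.48 (adjusted p = 0.0322). Thinned to 10000 UMIs, the share of cells with an Mfge8 UMI in Experiment 2 was 37.5% in non-efferocytic and 35.6% in efferocytic cells.

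The Mfge8 molecules were concentrated in few cells. With every cell thinned to 5000 UMIs, cells with at least 5 Mfge8 UMIs were 2.10% and 2.72% of non-efferocytic cells and 4.37% and 4.19% of efferocytic cells. These few cells held 34.3% and 44.2% of all Mfge8 UMIs in the non-efferocytic libraries and 49.3% and 56.5% in the efferocytic ones. Both shares were higher in the efferocytic library of each experiment, and 2 libraries against 2 cannot go below p = 0.333 in a two-sided exact permutation test.

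Of the Mfge8-rich cells 97.1% to 98.9% were macrophage-marker barcodes, against 97.9% to 98.7% of the rest. The rich cells were higher in both libraries of Experiment 1 and lower in both of Experiment 2. Epithelial or stromal UMIs were found in 6.62%, 3.72%, 23.5% and 4.53% of them (non-efferocytic and efferocytic of Experiment 1, then of Experiment 2) against 5.26%, 3.09%, 22.4% and 3.61% of the rest, more often in the rich cells of all 4 libraries, and their part was not tested. These UMIs were counted before thinning, so depth was not matched. The median depth of the rich cells was 15042 to 20651 UMIs, above that of the other cells in each library (11633 to 18202.5). Among the other 9 genes, Stab1 was lower in them in every library, at a mean of 1.83 UMIs per thinned cell against 3.61 in the non-efferocytic library of Experiment 1, 1.10 against 2.65 in that of Experiment 2, 1.03 against 1.72 in the efferocytic library of Experiment 1 and 1.00 against 1.50 in that of Experiment 2. Itgav was lower in them as well in every library (0.114 to 0.245 against 0.135 to 0.300). The rich cells were set apart by their Mfge8 count, and these values are descriptions without a test.

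In the cells outside this group the mean Mfge8 count was 0.318 and 0.333 UMIs per thinned cell in non-efferocytic libraries and 0.440 and 0.354 in efferocytic ones. The variance of the thinned Mfge8 count was 3.93 to 9.99 times its mean. For Rac1 the same ratio was 1.04 to 1.05, near that of random counting, and for Stab1 it was 2.02 to 2.53. A single efferocytic cell of Experiment 1 held 476 Mfge8 UMIs before thinning, the highest count of any of the 10 genes in 1 cell.

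Itgav, the alpha v integrin chain, was at 33.6 and 26.7 CPM in non-efferocytic libraries and at 56.7 and 48.3 CPM in efferocytic ones. The groups did not overlap, and the ratio was near the same in both experiments. Its log2 fold change of 0.91 (SE 0.0742, adjusted p = 0.000145, edgeR) was the largest rise of the 10 genes and passed the test in every one of the 15 alternatives that used all 4 libraries. Without 1 library at a time, and also without the block, it lay between 0.75 and 1.09. In these fits it lost the call when a non-efferocytic library was left out, at 1.09 without that of Experiment 1 and 0.76 without that of Experiment 2. Without the block alone its adjusted p was 0.0266 (edgeR).

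Itgb5, the more abundant of the beta chains Itgb3 and Itgb5, was not called. It was at 114 and 92.5 CPM in non-efferocytic libraries and at 85.2 and 78.5 CPM in efferocytic ones. The groups did not overlap, which held for 66.9% of all genes tested, and the log2 fold change of -0.22 (SE 0.0813, adjusted p = 0.0639, edgeR) missed the threshold. It passed as lower in 5 of the 15 alternatives with 4 libraries, among them the band of cells with 10000 to 20000 UMIs (-0.26, adjusted p = 0.0469) and library totals in place of TMM (-0.33, adjusted p = 0.00977), and as UMIs per cell it was 0.40 (adjusted p = 0.130).

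Itgb3, the beta chain of the classical vitronectin receptor, was barely detected, with 152 to 253 UMIs in a whole library. It was at 1.50 and 1.32 CPM in non-efferocytic libraries and 1.44 and 1.63 CPM in efferocytic ones. The groups overlapped (log2 fold change 0.23, SE 0.170, adjusted p = 0.308, edgeR), and in Experiment 1 the efferocytic library was the lower. Empty droplets held Itgb3 at 2.13 to 7.93 CPM, above the cells of every library. Its CPM in cells was thus not above that of free RNA, which does not tell how many of its UMIs in cells were free RNA. Droplets were also above cells in CPM for another member. This was so in 3 of the 4 libraries for Itgav (37.4 CPM in empty droplets against 33.6 in cells and 39.7 against 26.7 in the non-efferocytic ones, 50.8 against 48.3 in the efferocytic one of Experiment 2).

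The balance of Itgav and Itgb5 is given as ratios, without a test. Itgb1, which alpha v can also use, was more abundant than Itgb5 in every library. Its UMIs were 1.59 to 2.79 for each Itgb5 UMI. There were 3.38 and 3.47 Itgb5 UMIs for each Itgav UMI in non-efferocytic cells and 1.50 and 1.63 in efferocytic cells. With cells thinned to 5000 UMIs, Itgav and Itgb5 were detected together in 7.0% and 4.57% of non-efferocytic cells and in 8.41% and 7.34% of efferocytic cells. Among cells with an Itgav UMI, Itgb5 was detected in 33.1% to 46.3%, close to the 32.1% to 41.8% of cells without one.

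The 7 osteoclast markers (Atp6v0d2 the most abundant) were fixed because alpha v integrins are prominent in that lineage. Their sum, like Itgav, was higher in both efferocytic libraries. Within each group the library with the higher sum had the lower Itgav. Summed, the markers were at 284 and 349 CPM in non-efferocytic libraries and 429 and 433 CPM in efferocytic ones. In each library 3 of the 7 exceeded 1 CPM. Calcr was at 0 in all, and Oscar in the efferocytic library of Experiment 2. Their part in the Itgav result was not tested.

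**Figure D2:**
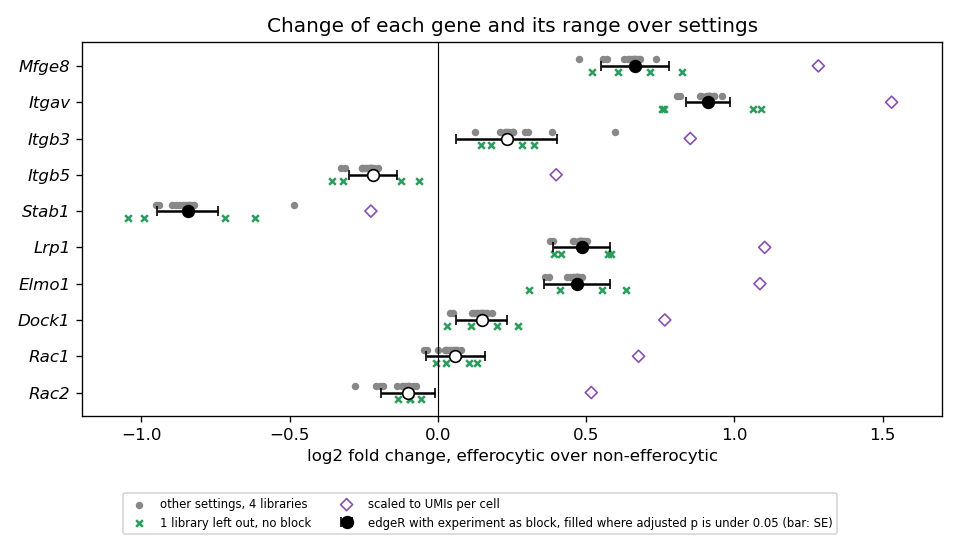
Log2 fold change of each gene, efferocytic over non-efferocytic, by edgeR with experiment as block (large circle with SE, filled where the adjusted p was under 0.05). Grey points are other settings with all 4 libraries, green crosses leave out 1 library and the block, and purple diamonds are scaled to UMIs per cell. Stab1 stayed below 0 under all of them, Itgav, Mfge8, Lrp1 and Elmo1 above 0, and scaling to UMIs per cell put Itgb5 and Rac2 above 0.

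Stab1 was the member that fell. It was at 625 and 463 CPM in non-efferocytic libraries and at 298 and 260 CPM in efferocytic ones. The groups were far apart, and the non-efferocytic libraries differed more from each other than the efferocytic ones did. The log2 fold change was -0.84 (SE 0.104, adjusted p = 0.000813, edgeR). As UMIs per cell it was -0.23 (adjusted p = 0.245), against a rise of 0.60 in the median gene. Without 1 library at a time, and also without the block, it lay between -1.05 and -0.62. It then passed only without the efferocytic library of Experiment 1. Without the block alone its adjusted p was 0.0386 (edgeR).

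From 5000 UMIs up, the Stab1 level was lower the deeper the cells, and efferocytic cells were deeper. In non-efferocytic cells of Experiment 1 it was 954 CPM in cells of 5000 to 10000 UMIs, 612 CPM at 10000 to 20000 and 406 CPM at 20000 or more. The efferocytic cells of that experiment had 455, 384 and 239 CPM in the same bands. In Experiment 2 the values were 722, 420 and 269 CPM against 435, 343 and 188 CPM. Within every band and both experiments the efferocytic cells were lower, and in the band of 10000 to 20000 UMIs alone the log2 fold change was -0.49 and passed the test, against -0.84 with all cells.

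Stab1 was near 0 in the neutrophil-marker barcodes of the sort, which were also chosen for holding few macrophage markers. Barcodes with neutrophil markers, 16 to 38 per library, held Stab1 at 0 to 19.8 CPM, and macrophage-marker barcodes at 637 and 475 CPM in the non-efferocytic pair and 301 and 264 CPM in the efferocytic pair. The 8 macrophage markers summed to 36566 and 31448 CPM in the non-efferocytic pair and to 29282 and 21931 CPM in the efferocytic pair. Their part in the Stab1 result was not tested.

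**Figure D3:**
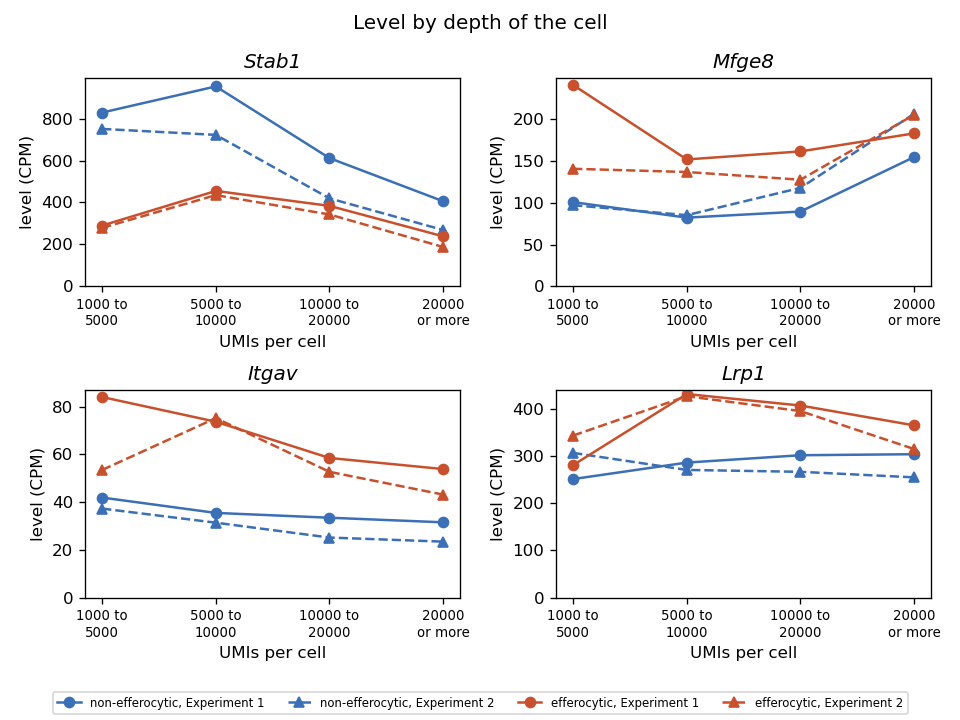
Level in CPM of Stab1, Mfge8, Itgav and Lrp1 in cells split by their UMIs (4 bands on the horizontal axis), for the 4 libraries. Blue lines are non-efferocytic, orange lines efferocytic, solid Experiment 1 and dashed Experiment 2. Stab1 is lower and Itgav higher in efferocytic cells in every band of both experiments, and the Mfge8 lines of Experiment 2 meet at 20000 UMIs or more, at 206 and 205 CPM.

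Lrp1, the other large receptor, went the opposite way. It was at 298 and 267 CPM in non-efferocytic libraries and at 381 and 351 CPM in efferocytic ones, without overlap. The log2 fold change was 0.48 (SE 0.0966, adjusted p = 0.00612, edgeR). Without 1 library at a time, and also without the block, it lay between 0.39 and 0.58 and passed in no case. Without the block alone its adjusted p was 0.0483 (edgeR). There were 0.476 and 0.575 Lrp1 UMIs for each Stab1 UMI in non-efferocytic cells and 1.28 and 1.35 in efferocytic cells, so that Lrp1 was the rarer of the 2 receptors in the first group and the more abundant in the second.

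The level of Lrp1 varied less between cells than that of Mfge8, with a variance of 1.22 to 1.36 times the mean. With cells thinned to 5000 UMIs, Lrp1 was detected in 72.9% and 70.3% of non-efferocytic cells and in 81.8% and 80.6% of efferocytic cells. Stab1 was detected in 86.1% and 78.3% of non-efferocytic and 68.0% and 63.0% of efferocytic cells. The 95% Wilson intervals, which cover counting error only, did not overlap between groups for either receptor. Empty droplets would give Stab1 in 95.7% and 76.2% against 65.2% and 66.8%, above the cells in the non-efferocytic library of Experiment 1 and the efferocytic library of Experiment 2, and running the same way between groups, so that no difference in cells with Stab1 is read from these shares. For Lrp1 they would give 56.9% and 64.7% against 60.3% and 70.8%, under the cells in every library. These droplet shares, here and below, take all 5000 UMIs of a cell as free RNA, the most it could hold. A share of cells under them therefore does not show that the gene was detected as free RNA.

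Elmo1, the scaffold part of the exchange factor for Rac, was at 33.1 and 30.0 CPM in non-efferocytic libraries and at 35.1 and 46.5 CPM in efferocytic ones. Both efferocytic libraries were higher, by a log2 ratio of CPM of 0.09 in Experiment 1 and 0.63 in Experiment 2. The fitted log2 fold change was 0.47 (SE 0.112, adjusted p = 0.0130, edgeR) and lost the call without the block (adjusted p = 0.0645). Without the efferocytic library of Experiment 2 it was 0.31 (adjusted p = 0.125) and without that of Experiment 1 it was 0.64 (adjusted p = 0.0211). Without the non-efferocytic library of Experiment 1 or 2 it was 0.55 (adjusted p = 0.190) or 0.41 (adjusted p = 0.224). Empty droplets held Elmo1 above the cells in 3 of the 4 libraries, at 42.7 CPM against 30.0, 44.2 against 35.1 and 48.0 against 46.5. In the annotation 3 genes overlap Elmo1 on its strand and 1 overlaps Dock1, so reads of these genes are uncertain there.

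Dock1, the catalytic part, was at 16.4 and 17.4 CPM in non-efferocytic libraries and at 15.6 and 19.3 CPM in efferocytic ones. The groups overlapped and the experiments went opposite ways (log2 fold change 0.15, SE 0.0845, adjusted p = 0.200, edgeR). Dock2, the form of blood cells, was 5.76 to 6.86 times as abundant as Dock1 in the 4 libraries, and its log2 fold change was 0.03 (adjusted p = 0.826) with a sign that turned under library totals (-0.08). Elmo3, named after its values were seen and under 1 CPM in each library, fell by 0.85 (adjusted p = 0.0285). Elmo2, another ELMO, rose by 0.40 (adjusted p = 0.00654), from 20.3 and 18.1 CPM to 23.3 and 23.6 CPM, and missed the threshold without the block (adjusted p = 0.053).

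In the fit scaled by TMM, Rac1 showed the least difference of the 10 genes. It was at 410 and 388 CPM in non-efferocytic libraries and at 394 and 377 CPM in efferocytic ones, and the groups overlapped. The log2 fold change of 0.06 (SE 0.0995, adjusted p = 0.665, edgeR) turned to -0.05 under library totals and to 0.68 (adjusted p = 0.000477) as UMIs per cell. Rac1 was detected in 84.5% to 86.9% of cells thinned to 5000 UMIs in the 4 libraries. Empty droplets would give 80.7% and 81.8% in the non-efferocytic and 80.5% and 85.1% in the efferocytic libraries. In the efferocytic library of Experiment 2 this was above the cells.

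Rac2, the Rac of blood cells and a part of the phagocyte oxidase, was at 235 CPM in both non-efferocytic libraries and at 203 CPM in both efferocytic ones. The groups did not overlap, yet the log2 fold change of -0.10 (SE 0.0914, adjusted p = 0.408, edgeR) missed the threshold, and as UMIs per cell it was 0.52 (adjusted p = 0.0198). Barcodes with neutrophil markers held Rac2 at 1069 to 1207 CPM, above the macrophages. The 10 neutrophil markers summed to 3139 and 3439 CPM in the non-efferocytic pair and to 979 and 719 CPM in the efferocytic pair, with none at 0. Within macrophage-marker barcodes alone Rac2 was at 227 and 226 CPM against 201 and 202 CPM. These barcodes can still hold neutrophil RNA, and its part in the Rac2 values was not tested.

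**Figure D4:**
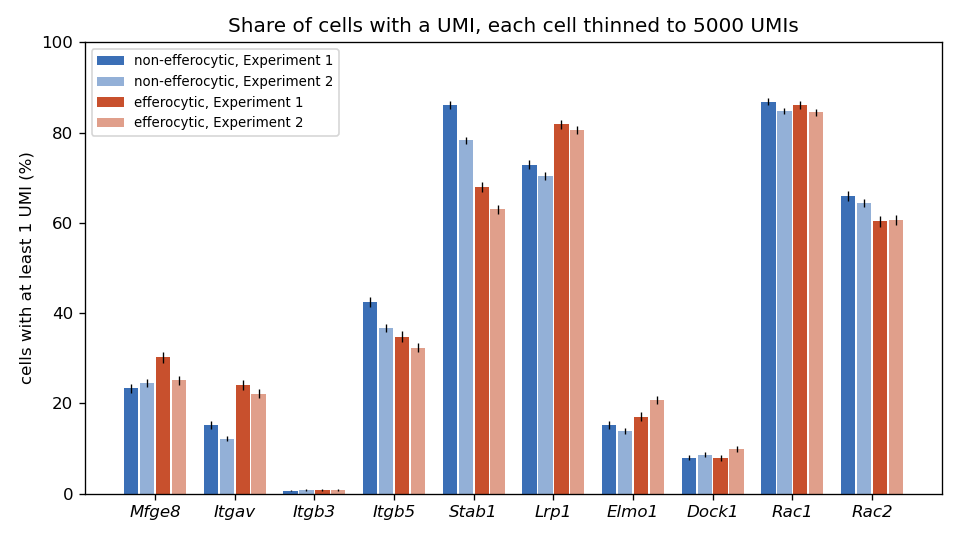
Share of cells with at least 1 UMI of each gene (vertical axis, percent) after thinning each cell to 5000 UMIs, with 95% Wilson intervals. Blue bars are non-efferocytic and orange bars efferocytic, dark Experiment 1 and pale Experiment 2. Itgav and Lrp1 stand higher and Stab1, Itgb5 and Rac2 lower in both efferocytic libraries, and Itgb3 stays under 1% in all 4.

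The share of cells with a UMI was compared at 5000 UMIs per cell, which left out 1099 and 3404 non-efferocytic and 544 and 505 efferocytic cells. Itgav was detected in 15.1% and 12.2% of non-efferocytic cells and in 24.1% and 22.1% of efferocytic cells. As many UMIs drawn from the empty droplets would give 17.0% and 18.0% in the non-efferocytic and 17.9% and 22.4% in the efferocytic libraries, so that only the efferocytic library of Experiment 1 was above it. Without thinning these were 28.8% and 21.1% against 55.3% and 52.2%, a wider gap in libraries of unequal depth. Mfge8 was detected in 23.4% and 24.5% against 30.2% and 25.1%, with intervals that overlapped in Experiment 2. Empty droplets would give 43.5% and 35.4% against 49.8% and 37.5%, above the cells in every library.

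Itgb5 was detected in 42.5% and 36.7% of non-efferocytic and 34.8% and 32.3% of efferocytic cells. Empty droplets would give 23.8% and 35.7% against 24.3% and 31.7%, under the cells in every library but close to them in Experiment 2. Rac2 was detected in 66.0% and 64.5% against 60.3% and 60.7%. The Rac2 shares lay under the 78.2% and 67.9% against 84.7% and 68.6% that empty droplets would give. Elmo1 was detected in 15.1% and 13.8% against 17.0% and 20.7%. In each library this was under the 15.2% and 19.2% against 19.8% and 21.3% that empty droplets would give. That bound supposes cells of free RNA alone, so it cannot tell expression from free RNA, and no expression per cell is read from the Elmo1 shares. Dock1 was detected in 7.97% and 8.63% against 7.90% and 9.82%. Elmo1 and Dock1 were found together in 1.17% to 2.13% of cells. A cell held on average 3.94 to 4.17 of the 10 genes at this depth in the 4 libraries.

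Neutrophil-marker barcodes were described as well (14 to 32 per library at this depth, median unthinned depth 9844 to 20526 UMIs against 10250.5 to 17852.5 in macrophage-marker barcodes). They were also chosen for holding few macrophage markers. Low shares of macrophage genes are partly set by that choice, so these barcodes are no independent background. Mfge8 was found in 0% to 3.12% of them, Stab1 in 0% to 4%, Lrp1 in 0% to 7.14% and Itgb5 in 0% to 14.3%. The shares in all cells were above these in every library. Empty droplets, in contrast, held Mfge8 at 87.2 to 138 CPM and Stab1 at 211 to 628 CPM, against 106 to 175 CPM and 260 to 625 CPM in cells. In the non-efferocytic library of Experiment 1 the droplets were above the cells for both, at 114 against 106 CPM and 628 against 625 CPM. For Itgb3 the shares in all cells were under those in neutrophil-marker barcodes in the non-efferocytic libraries (0.668% and 0.739% of cells against 8% and 6.25%). In the efferocytic libraries they were above (0.764% and 0.797% of cells against 0%). Neutrophil-marker barcodes thus give no background for Itgb3. Empty droplets would give it in 1.49% and 3.89% against 1.06% and 2.79%, above the cells in every library, and the Itgb3 shares are read as background.

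Of the other genes of the pathway, 6 lists with 110 genes were described in the same fit, 95 of which passed the filter on low counts. In all, 22 were higher and 28 were lower. The genes named from a list are the largest called changes among genes that averaged 5 CPM or more, and rarer genes moved further in some lists. Among other integrin subunits 4 of 18 were higher and 6 lower, with a median log2 fold change of -0.19. Itgb7 (0.63, adjusted p = 0.00131) and Itgax (0.57, adjusted p = 0.0182), the CD11c chain, rose, and Itgal (-1.32, adjusted p = 0.00122), the CD11a chain, and Itga4 (-0.98, adjusted p = 0.000140) fell. In cells of 10000 to 20000 UMIs alone Itgb7 had 0.17 (adjusted p = 0.248) and Itgax 0.31 (adjusted p = 0.323). Without the block Itgb7 (adjusted p = 0.442), Itgax (adjusted p = 0.0905) and Itgal (adjusted p = 0.1) missed the threshold. With 1 library left out at a time, without the block, Itgb7 lay between -0.087 and 1.40, below 0 without the efferocytic library of Experiment 2, and passed in no case. Itgax lay between 0.31 and 0.84, passing without that same library alone (adjusted p = 0.0266), and Itgal between -1.96 and -0.72, passing without the efferocytic library of Experiment 1 alone (adjusted p = 0.012). Itgb1, the beta chain that alpha v can also use, rose by 0.34 (adjusted p = 0.0216, and 0.0577 without the block), and Itgb2, the chain of the complement receptors, had 0.21 (adjusted p = 0.111).

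Among other bridging and engulfment receptors 2 of 10 were higher and 5 lower, with a median of -0.21. Calr, which encodes the calreticulin that LRP1 binds, rose by 1.51 (adjusted p = 7.23e-05), from 207 and 184 CPM to 517 and 519 CPM. Havcr2, which encodes TIM-3, rose by 1.13 (adjusted p = 0.000784). Thbs1, thrombospondin-1, a bridging protein, fell by 2.90 on the log2 scale (adjusted p = 3.15e-06), from 95.2 and 76.2 CPM to 12.3 and 9.17 CPM. The 8 stromal markers, none of them at 0, summed to 192 and 164 CPM in the non-efferocytic pair and to 62.6 and 69.8 CPM in the efferocytic pair. Cells with an epithelial or stromal UMI were 21.9% of the non-efferocytic library of Experiment 2 and 3.08% to 5.02% of the others, and without these cells Thbs1 had -3.12 (adjusted p = 0.000216). Abca1, a cholesterol exporter that acts in engulfment, fell to 218 and 198 CPM from 295 and 289 CPM (-0.39, adjusted p = 0.0170). In cells of 10000 to 20000 UMIs alone Abca1 had -0.12 (adjusted p = 0.397), and without the block its adjusted p was 0.0692.

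Among other ELMO, DOCK and Rac activators 8 of 28 were higher and 9 lower, with a median of 0.014. Rac3 (0.73, adjusted p = 0.000853) and Ptk2b, the kinase PYK2 (0.54, adjusted p = 0.00145), rose, and the exchange factors Vav2 (-0.57, adjusted p = 0.00226) and Prex1 (-0.54, adjusted p = 0.00186) fell. Without the block Vav2 (adjusted p = 0.063) and Prex1 (adjusted p = 0.0642) missed the threshold. Of 23 Rac effectors to actin 5 were higher and 3 lower, with a median of 0.11. Cyfip2, a subunit of the WAVE complex, rose by 1.41 (adjusted p = 0.000150) and Arpc5, of the Arp2/3 complex, by 0.42 (adjusted p = 0.0122). Baiap2, the adaptor IRSp53, fell by 0.56 (adjusted p = 0.00311). Cyfip1, named after its values were seen and more abundant than Cyfip2 (118 CPM on average), was not called (0.067, adjusted p = 0.559). Arpc5 had 0.28 in cells of 10000 to 20000 UMIs alone (adjusted p = 0.0695), and Baiap2 missed the threshold without the block (adjusted p = 0.0683).

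Of 4 genes of the phagocyte NADPH oxidase, the enzyme that Rac2 helps to activate, 2 were lower. Ncf1 was at 170 and 150 CPM in the non-efferocytic pair and at 121 and 106 CPM in the efferocytic pair (-0.39, adjusted p = 0.00890). Ncf4 was at 111 and 117 CPM against 90.1 and 87.1 CPM (-0.26, adjusted p = 0.04999), just under the threshold, and missed it with DESeq2 (adjusted p = 0.0945) and without the block (adjusted p = 0.1), as did Ncf1 without the block (adjusted p = 0.0896). The neutrophil markers given beside Rac2 were lower in the same groups, at 979 and 719 CPM in the efferocytic pair against 3139 and 3439 CPM. Within macrophage-marker barcodes Ncf1 had -0.39 (adjusted p = 0.0127) and Ncf4 -0.25 (adjusted p = 0.0621). Such barcodes can still hold neutrophil RNA, and its part in the Ncf1 and Ncf4 values was not tested. Of 12 Rac inhibitors, genes whose products hold Rac inactive, 3 were higher and 3 lower. Arhgap24 (1.47, adjusted p = 8.97e-05) and Arhgap22 (0.43, adjusted p = 0.00402) rose, and Arhgap15 (-0.62, adjusted p = 0.000980) and Chn2 (-0.60, adjusted p = 0.00320) fell. As UMIs per cell Arhgap15 had -0.0026 (adjusted p = 0.994) and Itga4 -0.36 (adjusted p = 0.211), and Abca1, Vav2, Prex1, Baiap2, Ncf1, Ncf4 and Chn2 turned above 0 and none of these 9 passed. With 10% of UMIs taken off as free RNA Thbs1 had -5.71 (adjusted p = 0.118) and Itgal -4.11 (adjusted p = 0.165). Of the other named genes outside the 10, Calr, Arhgap24, Itga4 and Arhgap15 kept their calls in that setting, and the rest of those called lost theirs.

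**Figure D5:**
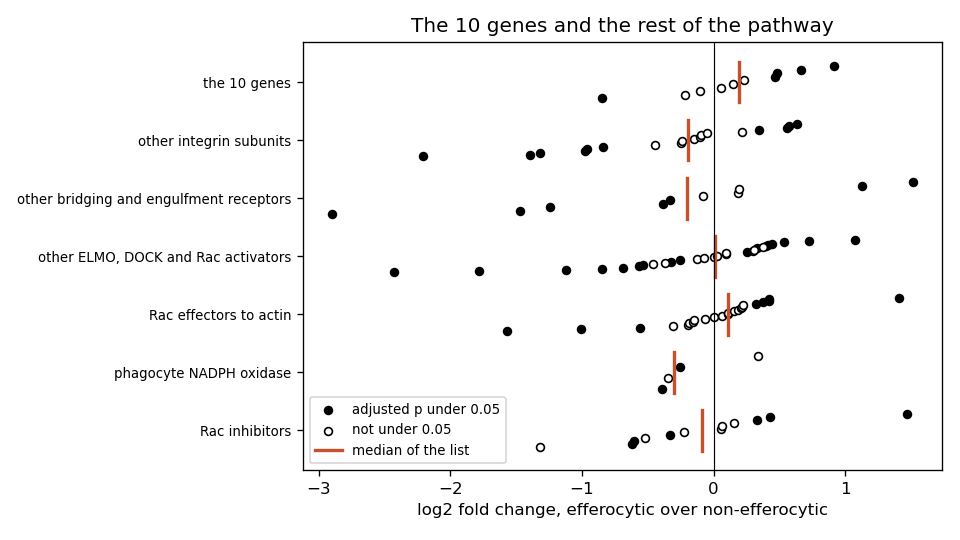
Log2 fold change (efferocytic over non-efferocytic, edgeR scaled by TMM) of the 10 genes and of the tested genes of 6 further lists. Filled points have an adjusted p under 0.05 and the orange line is the median of the list. The medians run from -0.30 for the NADPH oxidase to 0.19 for the 10 genes, and each list holds open points.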

How the data were processed

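Single-cell 3' RNA sequencing of sorted BM macrophages was analysed in 4 libraries, 1 non-efferocytic and 1 efferocytic in each of 2 experiments. The authors deposited UMI counts, raw and for every barcode, mapped to mm10 with Cell Ranger (3.0.0 in the methods and in the headers of Experiment 1, 3.1.0 in those of Experiment 2). The study's integration and clusters (Seurat 3.1) and its tests on cells (DESingle) were not repeated. Barcodes counted as cells from 200 genes and 1000 UMIs up, with mitochondrial UMIs of 10% or less. No doublet caller was run, and leaving out the 5% of barcodes with most UMIs was an alternative.

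Counts were summed per library, since cells are not replicates, and tested with edgeR 4.0.16 (quasi-likelihood, TMM, filterByExpr) in R 4.3.3 with experiment as block, Benjamini-Hochberg adjustment over 13869 genes and a threshold of 0.05. The labels give the experiment of each library, and same-experiment libraries deviated together (correlation 0.8 over 7097 genes). The fit had 1 residual degree of freedom per gene, shared between genes. The standard error is the log2 fold change over the square root of F. The procedure was tested on simulated data. Shares used cells thinned at random to 5000 UMIs (numpy 2.4.6) and 95% Wilson intervals. Empty droplets were barcodes of 10 to 100 UMIs. The share of cells that they would give takes every UMI of a thinned cell as free RNA. It is an upper bound and no estimate of the free RNA in cells. Macrophage-marker barcodes held at least 4 of 8 macrophage markers and at most 2 neutrophil markers at 2 or more UMIs. Neutrophil-marker barcodes held at least 3 of 10 neutrophil markers at 2 or more UMIs and at most 2 macrophage markers. Cells of the 4 libraries held 77.6% to 89.4% of all UMIs.

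Named are the 10 genes, from each pathway list the 2 largest called rises and falls among genes that averaged 5 CPM or more, and Elmo2, Dock2, Rac3, Itgb1 and Itgb2. The members, lists and rules were chosen with earlier results of these data known. A gene of the lists is not reported here and was left out of their counts. The alternatives were no block, DESeq2 1.42.0, 2 other scalings, 2 other gene filters, 8 cell filters, 10% of UMIs taken off as free RNA, each library left out, and 3 other thinning depths, of which the removal of shared barcodes was chosen after seeing the data.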

Additional observations from a re-analysis of the deposited data

How the results depend on the processing

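Of 189 values of the 10 genes over 19 alternatives, 154 kept their direction and their side of the threshold, 21 lost the call, 8 gained one and 6 changed sign. For the 25 other named genes these were 351, 106, 2 and 13 of 472. The counts of higher and lower genes among the 10 (4 and 1) became 8 and 0 as UMIs per cell. They became 1 and 0 with 10% of UMIs taken off as free RNA, where Itgav passed. Lower members were 2, Itgb5 being the added one, under library totals, a minimum mean of 10 CPM, the band of 10000 to 20000 UMIs, without the 5% deepest barcodes and in macrophage-marker barcodes. Over all genes, higher and lower calls (2761 and 2636) became 1285 and 1073 without the replicate block, 6921 and 586 as UMIs per cell, 1473 and 1553 at a minimum mean of 10 CPM (fewer genes tested) and 192 and 125 with free RNA taken off. DESeq2 gave 1987 and 1417, and library totals 1847 and 3700 (median of all genes -0.12). The causes were not tested. Without the replicate block, members higher were 3, as Elmo1 was lost; the block changed the call of no other member.

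Without 1 library and without the block, members higher were 0 to 3, members lower 0 to 1, all genes higher 0 to 1658 and all genes lower 0 to 1275 (edgeR, 630 and 574 without efferocytic replicate 2). The lone library of a group was assumed to vary like the other group. Both cases with 0 members called left out a non-efferocytic library. Rac1 then lay between -0.0059 and 0.13, Itgb7 between -0.087 and 1.40 and Dock2 between -0.012 and 0.073. Rac1 also changed sign under library totals (-0.049), the minimum mean of 10 CPM (-0.037) and the band of 10000 to 20000 UMIs (-0.0013), and Dock2 under library totals (-0.082), that mean (-0.070), without barcodes with an epithelial or stromal UMI (-0.0031) and with free RNA taken off (-0.026). As UMIs per cell the sign changed for Itgb5 (0.40), Rac2 (0.52), Abca1 (0.23), Vav2 (0.050), Prex1 (0.078), Baiap2 (0.057), Ncf1 (0.23), Ncf4 (0.36) and Chn2 (0.014).

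At 5000 UMIs 5 members had a higher share of cells with a UMI in both experiments and 4 a lower one. The counts were not made over all genes, so nothing about the members is read from them. Without thinning these were 9 and 0, with unequal depth between groups, and at 10000 UMIs members higher were 3. The fit rested on 2 libraries a group and 1 residual degree of freedom.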

Other observations

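Further called genes of the pathway lists, chosen after their values were seen, are given here. Crk, the adaptor that links integrins to DOCK1, rose by 0.42 on the log2 scale (adjusted p = 0.00378, edgeR). In the same list Crkl was not called (0.094, adjusted p = 0.386). Bcar1, a rare gene here (0.53 CPM on average), fell by 1.78 (adjusted p = 0.00182). Rhog, the GTPase that recruits ELMO, fell by 0.33 (adjusted p = 0.0215). Of the 23 Rac effectors to actin, 5 of which were higher and 3 lower, Actr2 rose by 0.42 (adjusted p = 0.0103), Arpc2 by 0.38 (adjusted p = 0.0355) and Iqgap1, a Rac-binding scaffold, by 0.32 (adjusted p = 0.0393), while Nckap1, a rare gene here (1.13 CPM on average) and a subunit of the WAVE complex, fell by 1.01 (adjusted p = 0.0123). Nckap1l, more abundant than Nckap1 (151 CPM on average), was not called (0.15, adjusted p = 0.193). Itga5, the alpha chain of the fibronectin receptor, rose by 0.56 (adjusted p = 0.00124). Of these, none was tested for a relation to the 10 genes, and none was followed through the alternatives.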
